A study of Mus musculus with 8 samples.

Results

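The genes of the alpha, beta and gamma secretases were compared between 3xTg and wild-type (WT) mice in the subventricular zone, the neurogenic tissue along the lateral ventricle. They were taken as every array probe whose annotated gene symbol was Adam10, Adam17, Bace1, Bace2, Psen2, Ncstn, Aph1a or Psenen, which gave 12 probes for 8 genes of 32684 probes and 21363 named genes on the array. All mice were females aged 7 months on a background labelled as a cross of C57BL/6J females with 129S1/SvImJ males, and 3xTg was the only genotype difference named. The 3xTg line models Alzheimer's disease, and its alterations include human APP and MAPT transgenes in a neuronal Thy1 cassette. There were 4 samples of each genotype, paired by replicate number on 4 two-colour arrays, so that each array gave a difference. In the labels the Cy5 dye always goes with 3xTg and Cy3 with WT, with no dye swap, so genotype and dye cannot be told apart. The labelling protocol, however, names Cy3 nonamers for every sample, so only the label field gives Cy5 for 3xTg, while the pairing rests on the scan file that each pair shares.

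Secretases are proteases that cut membrane proteins such as the amyloid precursor protein. An alpha secretase cuts this protein inside the amyloid-beta sequence and sheds a soluble fragment, and in neurons this is mainly the metalloprotease ADAM10, with ADAM17 able to do the same. BACE1, an aspartic protease, makes the alternative beta cut, and gamma secretase, a membrane complex of a presenilin, nicastrin, APH-1 and PEN-2, then cuts within the membrane and releases amyloid-beta. The same enzymes process Notch, ephrins and growth factors, which act on neural stem cells of this niche.

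No secretase gene passed the test. Of the 12 probes, 0 had an adjusted p under 0.05 (limma on log2 intensity with the array as a block, adjusted over all probes), beside 1.22% of all probes, and 0 had an unadjusted p under 0.05, beside 18.0% of all probes. The fitted differences (log2 of 3xTg minus WT) ran from -0.27 at an Aph1a probe to 0.14 at Adam10. Of them, 7 lay above 0 and 5 below, with a median of 0.01, against a median of 0.0088 over all probes. The 2 genotypes overlapped at each of the 12 probes, whereas 4.53% of all probes had groups that did not overlap. A single probe, of Bace2, had the same sign on all 4 arrays, against 25.4% of all probes.

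**Figure D1:**
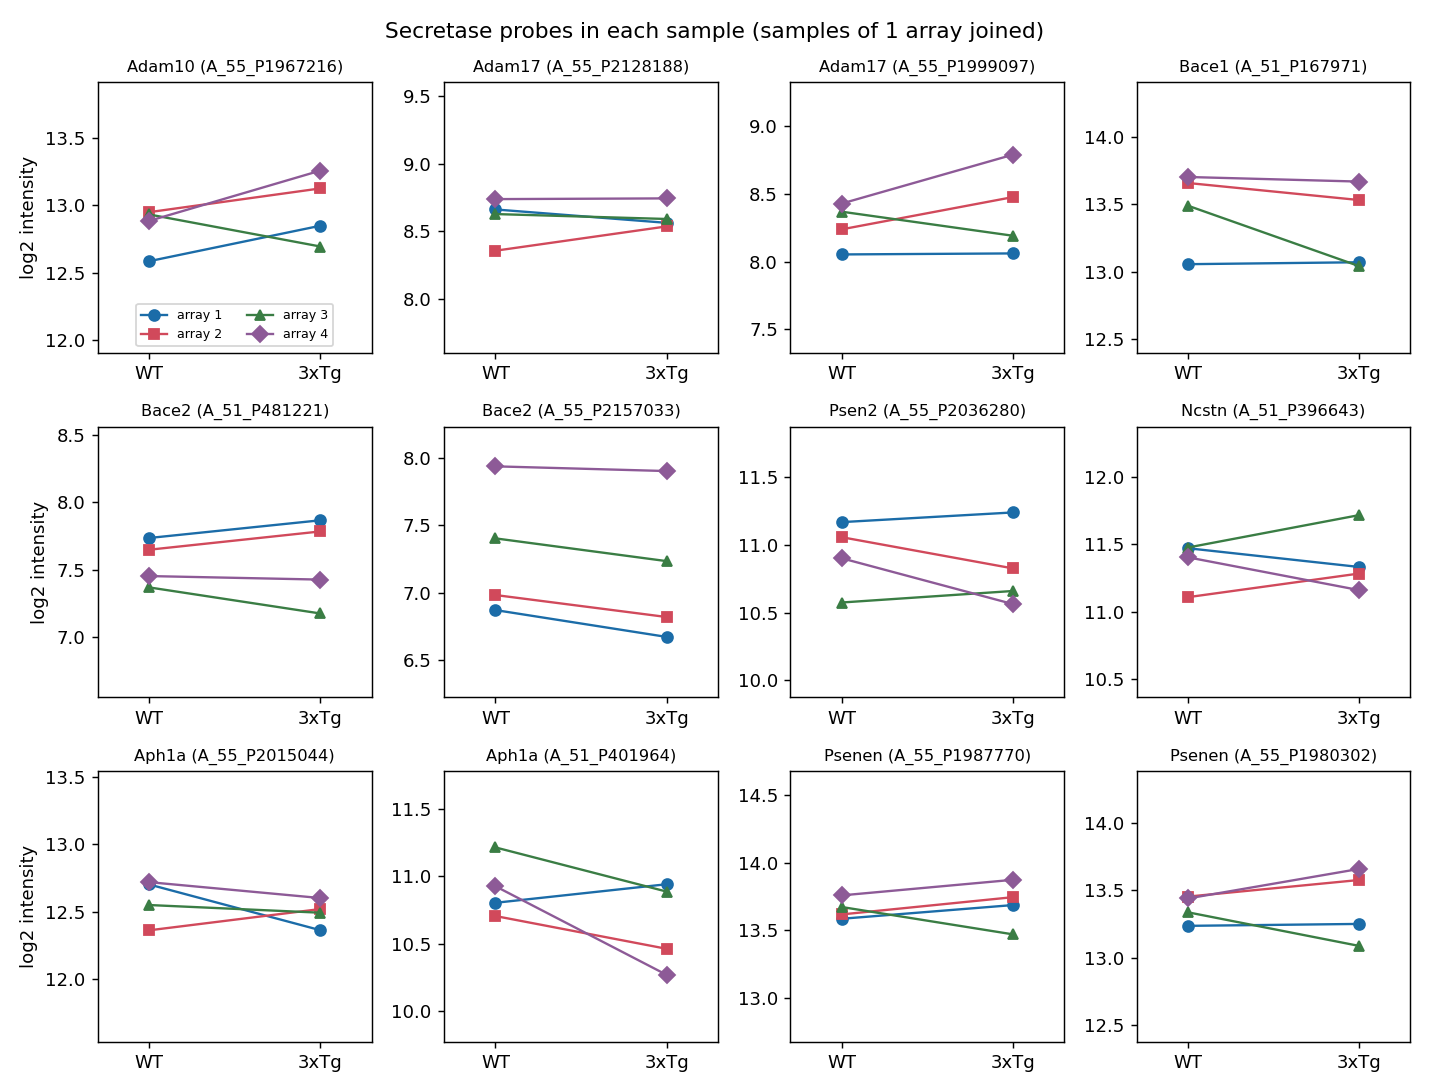
Log2 intensity of the 12 secretase probes in each sample, with WT at the left and 3xTg at the right of each panel and a line joining the samples of an array; the panels differ in level and each spans 2 log2 units. The lines of a panel mostly run both up and down.

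The alpha secretases came first. Adam10 (A_55_P1967216) measured 12.85, 13.12, 12.69 and 13.26 in the 3xTg samples of arrays 1 to 4 and 12.58, 12.95, 12.93 and 12.88 in the WT samples. The 3xTg sample was the higher on arrays 1, 2 and 4 and the lower on array 3, by 0.24. The fitted difference was 0.14 ± 0.12 (SE, n = 4 arrays), and its 95% interval ran from -0.14 to 0.43 (limma, adjusted p = 0.581). Without replicate 3 it was 0.27, with an adjusted p of 0.228.

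Adam17, also known as TACE, sheds tumour necrosis factor and ligands of the EGF receptor. Its main probe, the brighter on average (A_55_P2128188), measured 8.56, 8.54, 8.59 and 8.74 in 3xTg and 8.66, 8.36, 8.63 and 8.74 in WT. These values differed by 0.01 ± 0.10 (SE; limma, adjusted p = 0.966). The 3xTg range, 8.54 to 8.74, covered the upper part of the wider WT range, 8.36 to 8.74. The second Adam17 probe (A_55_P1999097) differed by 0.11 ± 0.12 (adjusted p = 0.674), with array differences of 0.0075, 0.24, -0.18 and 0.36. The 2 Adam17 probes had the same sign on arrays 2, 3 and 4 and opposite signs on array 1.

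Bace1 and Bace2 are the beta-site proteases, of which BACE1 makes the amyloid-forming cut in neurons, while BACE2 is known mainly from other tissues. Bace1 (A_51_P167971) measured 13.07, 13.53, 13.04 and 13.67 in 3xTg and 13.06, 13.66, 13.49 and 13.70 in WT. On array 3 the 3xTg sample was lower by 0.45, while on the other arrays the pair lay within 0.13 of each other. The fitted difference was -0.15 ± 0.11 (SE; 95% interval -0.41 to 0.11; limma, adjusted p = 0.522), and it was -0.05 without replicate 3.

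The main Bace2 probe (A_51_P481221) measured 7.87, 7.78, 7.18 and 7.43 in 3xTg and 7.74, 7.65, 7.37 and 7.45 in WT, a difference of 0.01 ± 0.10 (SE; limma, adjusted p = 0.97). The 3xTg sample was higher on arrays 1 and 2 and lower on arrays 3 and 4. The other Bace2 probe (A_55_P2157033) was lower in 3xTg on all 4 arrays, by 0.20, 0.16, 0.17 and 0.03, and its fitted difference of -0.14 ± 0.09 did not pass (adjusted p = 0.464). The mean of the pair on an array ran from 6.77 on array 1 to 7.92 on array 4. Both Bace2 probes lay in the dimmest 8% of the array (percentiles 7.71 and 2.79 of mean intensity) and the Adam17 probes at percentiles 24.0 and 19.5. Detection above background could not be assessed for these or the other probes.

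Gamma secretase was read through 6 probes of 4 subunit genes. Psen2 encodes presenilin 2, a catalytic subunit. At its probe (A_55_P2036280) 3xTg measured 11.24, 10.83, 10.66 and 10.56, and WT 11.17, 11.06, 10.57 and 10.90. The 3xTg sample was lower on arrays 2 and 4, by 0.23 and 0.34, and higher on arrays 1 and 3, by 0.07 and 0.09. The fitted difference was -0.10 ± 0.11 (SE; 95% interval -0.36 to 0.16; limma, adjusted p = 0.672).

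Ncstn encodes nicastrin, the large glycoprotein of the complex that takes part in substrate selection. Its probe (A_51_P396643) measured 11.33, 11.28, 11.72 and 11.16 in 3xTg and 11.47, 11.11, 11.48 and 11.40 in WT. Arrays split evenly, with 3xTg higher on arrays 2 and 3 and lower on arrays 1 and 4, and the fitted difference was 0.0084 ± 0.12 (SE; 95% interval -0.26 to 0.28; limma, adjusted p = 0.983).

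Aph1a encodes an APH-1 subunit, a scaffold on which the complex assembles, and the annotation ties its 2 probes to different RefSeq transcripts of the gene. The main probe (A_55_P2015044) measured 12.36, 12.52, 12.49 and 12.60 in 3xTg and 12.70, 12.36, 12.55 and 12.72 in WT. The other probe (A_51_P401964) measured 10.94, 10.46, 10.89 and 10.27 in 3xTg and 10.80, 10.71, 11.21 and 10.93 in WT. Both had lower values in 3xTg on arrays 3 and 4, but their signs were opposite on array 1 (-0.34 and 0.14) and on array 2 (0.16 and -0.24). The fitted differences were -0.09 ± 0.11 and -0.27 ± 0.14 (SE; limma, adjusted p = 0.717 and 0.343). The second of these was the smallest p among the 12 probes (unadjusted p = 0.0822 by limma), and on array 4, where its difference was -0.66, the main probe differed by -0.12. It was -0.41 without replicate 1 (adjusted p = 0.255) and -0.14 without replicate 4. The difference of the main probe was -0.0057 without replicate 1.

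Psenen encodes PEN-2, the smallest subunit, which completes the maturation of presenilin in the complex. Its main probe (A_55_P1987770) measured 13.69, 13.75, 13.47 and 13.87 in 3xTg and 13.59, 13.62, 13.67 and 13.76 in WT. The second (A_55_P1980302) measured 13.25, 13.58, 13.09 and 13.66 in 3xTg and 13.24, 13.45, 13.34 and 13.44 in WT. At both probes 3xTg was higher on arrays 1, 2 and 4 and lower on array 3, where the differences were -0.20 and -0.25. The fitted differences were 0.04 ± 0.10 and 0.03 ± 0.11 (SE; limma, adjusted p = 0.891 and 0.928), and without replicate 3 they were 0.11 and 0.12.

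**Figure D2:**
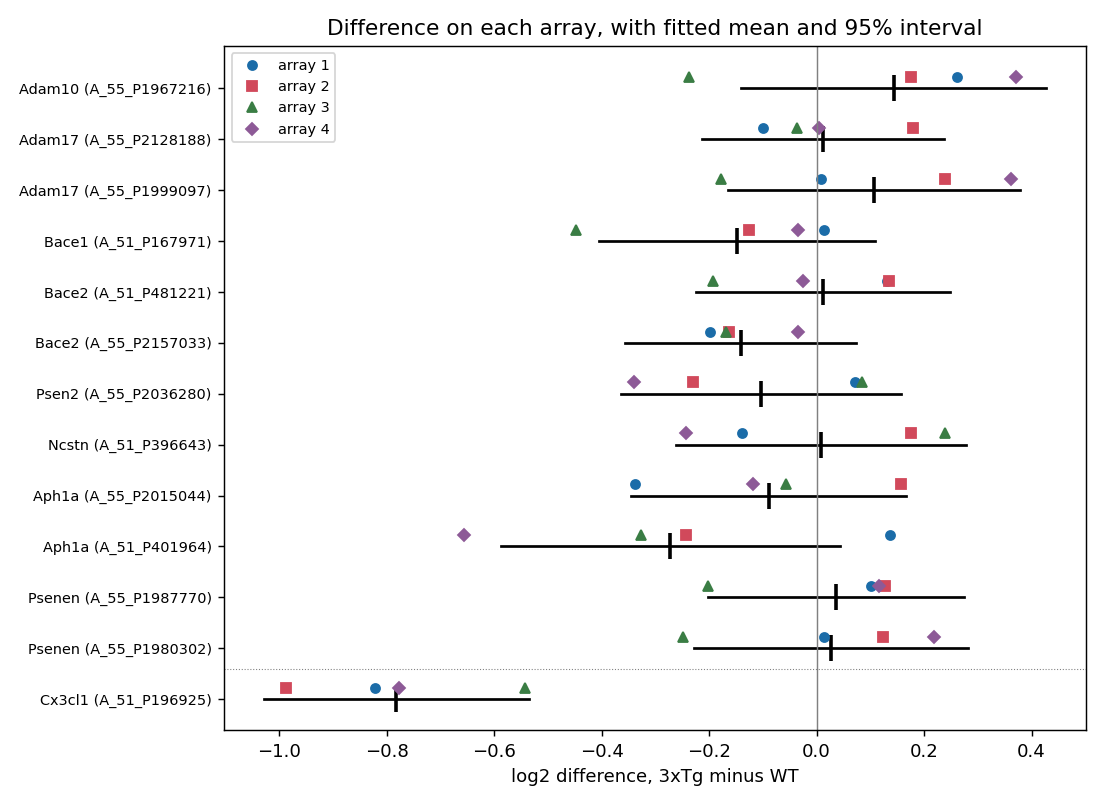
Log2 difference of 3xTg minus WT for each secretase probe and, below the dotted line, for the substrate gene Cx3cl1; symbols are the 4 arrays, the upright bar is the fitted mean and the horizontal line its 95% interval. The interval of each secretase probe crosses 0, while that of Cx3cl1 lies between -1.03 and -0.53.

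A p above the threshold does not show equal expression, and the intervals give the sizes these arrays leave possible. Over the 12 probes the lowest bound was -0.59, at the second Aph1a probe, and the highest was 0.43, at Adam10, which correspond to 0.665-fold and 1.34-fold of WT. The next lowest bound was -0.41, at Bace1. The smallest difference that passed anywhere on the array was 0.52 in size, and the bounds of 11 of the 12 probes were smaller than that. Precision was like that of the array as a whole, with a median SE of 0.11 for the secretase probes and 0.11 for all probes. With all probes of a gene averaged to 1 value and 21363 genes tested, the 8 genes differed by -0.18 to 0.14. Of these, 2 had 1 sign on all 4 arrays, a share near the 26.3% of all genes. They were Aph1a at -0.18 ± 0.09 and Bace2 at -0.065 ± 0.085 (SE; limma, adjusted p = 0.357 and 0.725). The 2 probes of each gene, however, had opposite signs on arrays 1 and 2.

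Levels also differed between arrays, each of which held different samples. The mean of the 2 samples of an array ranged over arrays by 0.22 for the main Aph1a probe to 1.15 for the dimmer Bace2 probe. The median of this range was 0.43 for the 12 secretase probes and 0.58 for all probes. Over the 12 probes, the distance of a sample from the mean of its genotype correlated between the pair on arrays 1 to 4 at r = 0.75, 0.84, 0.54 and 0.81, values that describe probes sharing an array and carry no test.

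Array 3 stood apart in direction. There 10 of the 12 secretase probes were lower in 3xTg and 2, Psen2 and Ncstn, were higher, with a median of -0.19, while the median of all probes was 0. On arrays 1, 2 and 4 the number higher was 8, 8 and 5 and the medians were 0.01, 0.13 and -0.03. Over all 32684 probes, 17649, 16897, 16325 and 16466 were higher on arrays 1 to 4. The 12 secretase probes are of 8 genes, so some genes count more than once here. The markers of other cell types also differed between arrays. The 12 measured genes of striatal projection neurons, which lie beside the dissected zone, had medians of -2.06, -1.65, 0.31 and -0.30 on arrays 1 to 4, and the 12 of ependymal cells had -0.41, -0.13, 0.49 and -0.40. The 13 of oligodendrocytes and myelin had -0.22, 0.58, 0.61 and 0.43. The part of these markers in the secretase values was not tested. The WT mean lay above the median of all probes for 12 of 14 measured markers of transit-amplifying cells and neuroblasts. For astrocytes and neural stem cells it did so for 10 of 14, and for ependymal cells for 8 of 12. Brightness also depends on the probe, and the others, such as Nes, Dlx2 and Spag6, lay below that median. The WT mean also lay above the median of all probes for 12 of 12 striatal, 12 of 12 microglial and 12 of 13 oligodendrocyte markers. It did so for 8 of 12 endothelial and pericyte and 4 of 9 choroid plexus markers. These counts therefore cannot check the tissue label.

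**Figure D3:**
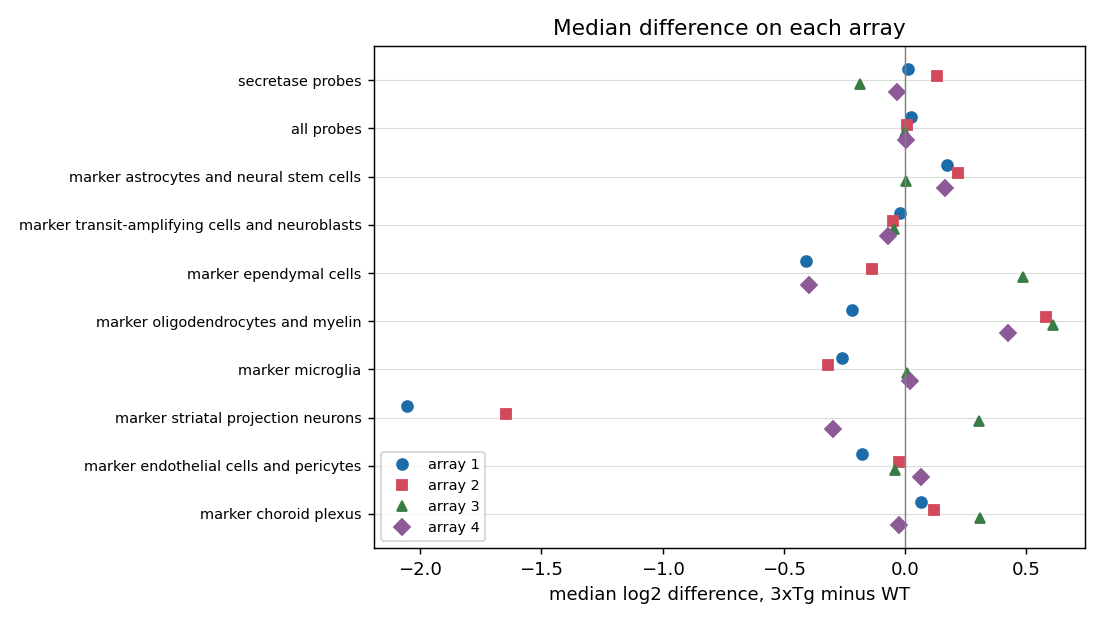
Median log2 difference of 3xTg minus WT on each of the 4 arrays, for the 12 secretase probes, for all probes and for 8 marker lists of cell types. The secretase medians lie between -0.19 and 0.13, while those of striatal projection neurons run from -2.06 to 0.31.

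The genes around the secretases were read at the brightest probe of each. Of 124 genes in 8 lists of partners, substrates and amyloid-beta degrading enzymes 120 were measured, each counted once. Of these, 1 passed, as lower, which is 0.833% beside 1.18% of all genes read at their main probe. At an unadjusted p under 0.05 there were 32, or 26.7%, beside 18.1% of all genes at their main probe. In all, 58 lay above 0 and 62 below, with a median of -0.0084.

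The gene that passed was Cx3cl1, which encodes fractalkine, a membrane-bound chemokine of neurons that ADAM10 and ADAM17 shed and whose receptor is on microglia. Its probe (A_51_P196925) measured 13.78, 13.77, 14.17 and 13.86 in 3xTg and 14.60, 14.76, 14.71 and 14.64 in WT. Every 3xTg sample lay below every WT sample, and the differences on arrays 1 to 4 were -0.82, -0.99, -0.54 and -0.78. Cx3cl1 fell by 0.78 ± 0.11 on the log2 scale (SE; 1.72-fold lower; limma, adjusted p = 0.0221). The call did not hold without replicate 1, 2 or 4 (adjusted p = 0.0917, 0.235 and 0.0594, with differences of -0.77, -0.71 and -0.78), nor without the array in the fit (adjusted p = 0.0943). The striatal marker medians on the same arrays were -2.06, -1.65, 0.31 and -0.30, so that Cx3cl1 differed most on the 2 arrays where these markers were lowest and least on array 3. On arrays 1 and 4, however, Cx3cl1 differed by nearly the same amount, -0.82 and -0.78, with striatal medians of -2.06 and -0.30. The part of these markers in the Cx3cl1 result was not tested. In bulk tissue, fewer cells of a type and less RNA per cell cannot be told apart.

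Of the other 23 measured substrates of alpha secretases, 0 passed, and 12 of the 24 lay above 0 (median 0.0077). Of the 24, 7 had an unadjusted p under 0.05 by limma, Cx3cl1 among them. Over all genes at their main probe the share was 18.1%, the background for this count in each list here and below. Hbegf, chosen after its value was seen, differed by -0.82 ± 0.20 (SE; limma, adjusted p = 0.101). On arrays 1 to 4 it differed by -1.345, -1.20, -0.15 and -0.58. Substrates of BACE1 had 6 of 17 above 0 and a median of -0.09, and 0 passed (limma, with 6 at an unadjusted p under 0.05). The 3 of smallest p were Sez6l, a seizure-related membrane protein, at 0.62 ± 0.19 (SE), and the sodium channel beta subunits Scn3b at 0.31 ± 0.10 and Scn2b at -0.31 ± 0.11, with adjusted p of 0.163, 0.173 and 0.202. Each had 1 sign on all 4 arrays, but Sez6l differed unevenly, by 1.18, 0.97, 0.11 and 0.23 on arrays 1 to 4. The largest difference in size in this list was at Scn4b, another such subunit, at -1.65 ± 0.65 (SE, limma adjusted p = 0.248). It differed by -3.42, -3.32, 0.71 and -0.56 on arrays 1 to 4 and was chosen after its value was seen. Substrates of gamma secretase, which include the Notch receptors, had 9 of 23 above 0, a median of -0.01 and 0 that passed (2 at an unadjusted p under 0.05). Their smallest p belonged to the ephrin Efnb1 (-0.34), the neurotrophin receptor Ngfr (0.68) and the hyaluronan receptor Cd44 (0.18, with -0.09, 0.17 and 0.41 at its other probes), with adjusted p of 0.17, 0.249 and 0.352. On arrays 1 to 4 Ngfr differed by 1.76, 0.81, 0.08 and 0.04. Sez6l, Scn4b, Hbegf and Ngfr thus differed most on arrays 1 and 2, where the striatal marker medians were -2.06 and -1.65. The part of these markers was not tested. Notch1 itself differed by -0.10 (adjusted p = 0.69); it was chosen after its value was seen.

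In the App family, App differed by 0.18, Aplp1 by -0.09 and Aplp2 by 0.32 ± 0.13 (SE; limma, adjusted p = 0.405, 0.668 and 0.26). Aplp2 was the higher in 3xTg on arrays 1, 2 and 4 and the lower on array 3, the pattern of signs that Adam10 and Psenen had. How well the mouse App probe binds the human transcript is not known.

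Partners that carry, activate or inhibit the alpha secretases had 11 of 20 above 0, a median of 0.02 and 0 that passed (limma, with 5 at an unadjusted p under 0.05). Dlg1, a synaptic scaffold reported to bind ADAM10, differed by -0.48 (-0.33 and 0.10 at its other probes), the convertase Pcsk7 by -0.32 and Tspan5, a tetraspanin that escorts ADAM10, by -0.48 (0.04 at its other probe), with adjusted p of 0.182, 0.201 and 0.215. Dlg1 differed by -0.76, -0.90, -0.06 and -0.22 on arrays 1 to 4, again most on arrays 1 and 2. In Tspan5 the lowest value was on array 3, at -1.06. Genes of BACE1 trafficking had 11 of 19 above 0, a median of 0.02 and 0 that passed (4 at an unadjusted p under 0.05). Rtn1, 1 of the 11 at 0.0020, had means of 16 in 3xTg and 15.99 in WT. These lie at the top of the scale, where a difference cannot be read. The sorting adaptor Gga1 differed by -0.44, the small GTPase Arf6 by 0.30 and the membrane-bending protein Bin1 by 0.29, with adjusted p of 0.163, 0.214 and 0.224.

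Genes of gamma-secretase assembly and modulation had 8 of 15 above 0, a median of 0.02 and 0 that passed (limma, with 5 at an unadjusted p under 0.05). Ubqln1, ubiquilin 1, which binds presenilins, differed by 0.47 ± 0.11 (SE, adjusted p = 0.0986) and was higher on 4 of 4 arrays. Its groups did not overlap, as at 5 of the 120 genes of the 8 lists and 4.53% of all probes. Ifitm3, an interferon-induced protein reported to bind gamma secretase, differed by 0.97 ± 0.25 (adjusted p = 0.12), with array differences of 0.09, 1.08, 0.79 and 1.90. The presenilin-binding protein Ctnnb1, beta-catenin, differed by 0.34 ± 0.12 (adjusted p = 0.215), with 1 sample at the highest value of its array channel. Enzymes that degrade amyloid-beta had 5 of 12 above 0, a median of -0.07 and 0 that passed (4 at an unadjusted p under 0.05). The peptidases Thop1 and Mmp14 were lower in 3xTg on all 4 arrays, at -0.51 ± 0.11 and -0.44 ± 0.10 (SE, adjusted p = 0.074 and 0.0825). Mme, neprilysin, differed by -0.51 ± 0.18 (adjusted p = 0.214, with -0.39 at its other probe) and was higher on array 3, by 0.13.

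**Figure D4:**
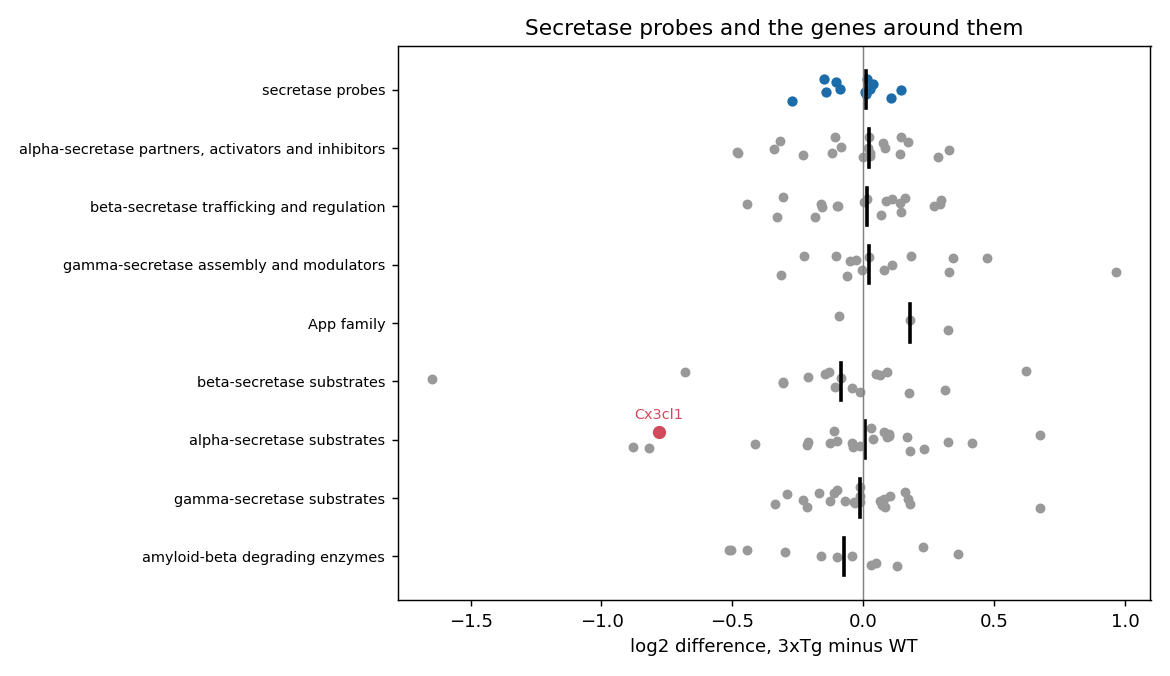
Log2 difference of 3xTg minus WT for the 12 secretase probes and for the genes of 8 surrounding lists at their main probe, a point for each; upright bars are medians, and the red point passed the test. The secretase points lie between -0.27 and 0.14, and Cx3cl1 is the only red point.

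The expression pattern of Bace1, the main probe of smallest p, was set against the main probes of 21362 other genes over the 8 samples. The 5 most like it were Prkce, Lmna, Hmg20b, Gm5745 and Cbs, with Pearson's r of 0.989, 0.984, 0.983, 0.981 and 0.981. These points share arrays and dyes, and 306 genes had an r above 0.9, so the values serve as a description only.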

How the data were processed

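Total RNA from 8 samples was read on 4 two-colour arrays. The authors deposited 1 normalized log2 intensity per probe and sample, complete for all probes. The submitters' processing notes name limma, without its version. How background, normalization and probe filtering were handled is not given in the sources used here, and scanner files were not used here. Symbols came from the platform annotation supplied with the data (29769 named probes, 2915 unnamed), of which 29519 had an Entrez identifier in the RefSeq table of GRCm38.p6, used for names only. A further gene of this family and a further allele of the line are not reported here.

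Log2 values of all 32684 probes entered 1 fit (limma 3.58.1, R 4.3.3) with array as a fixed block, and adjusted by Benjamini-Hochberg at 0.05; p-values are two-sided. The fit was also run on simulated data with planted differences and no dye effect, as a check of the code only. The pairing comes from the labels, which give 1 scan file per pair, and deviations over all probes correlated within arrays at 0.54 to 0.82. Replicates are biological per the design text. The number of arrays, 4, limits precision. The alternatives were no block, a random block (statmod 1.5.0), median centring, quantile or loess (span 0.3) normalization, trend and robust moderation, leaving out the dimmest 25% of probes or each array, and averaging the probes of a gene.

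All 12 member probes are named, with every sample for the brightest probe of each gene. From each other list the genes that passed, or else the 3 of smallest p, are named, as are App, Aplp1 and Aplp2. Members and lists were chosen with earlier results of these data known.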

Additional observations from a re-analysis of the deposited data

Results flagged for a closer look

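Among the 4 array differences of the main Psenen probe (A_55_P1987770), that of array 3 was -0.20 and lay far from the others, which were between 0.10 and 0.13. The second Psenen probe was also lowest on array 3, at -0.25, beside 0.01, 0.12 and 0.22. It was 1 of 39 groups of 4 values examined, and chance alone marks about 1 group in 20. The cause was not tested.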

How the results depend on the processing

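The number of secretase probes that passed was 0 under every alternative run, with or without the replicate block, and the lowest adjusted p of any of them was 0.228. Their median stayed between -0.05 and 0.01. Over all probes the count of 400 was 78 with no replicate block, 1309 with the array as a random replicate block, 247 after quantile normalization, 905 with trend and robust moderation, and 31 to 414 with 1 array left out. Near 0 signs turned: Adam17 (A_55_P2128188) was -0.0034 under loess, and the main Bace2 probe became -0.065 when both probes were averaged. With 1 array left out, Adam17 (A_55_P2128188) ranged from -0.043 to 0.050, Bace2 (A_51_P481221) from -0.029 to 0.080, Ncstn from -0.069 to 0.092 and Psenen (A_55_P1980302) from -0.037 to 0.12.

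Alternatives for the surrounding genes were added after seeing the data. Cx3cl1 kept its direction throughout, with adjusted p of 0.00231 to 0.235. Thop1, Mmp14 and Ubqln1 passed with the array as a random replicate block (adjusted p = 0.0291, 0.0346 and 0.0292), and the first 2 with trend and robust moderation (0.0408 and 0.0496). Hbegf passed only when replicate 3 was left out. The causes of these shifts were not tested. The 4 probes of Adam17 and Bace2 were not fitted when the dimmest 25% were left out.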
